A study of Homo sapiens with 18 samples.

Results

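The 38 genes described here encode the junctions, polarity complexes and basement-membrane contacts that make DLD1 cells an epithelium: 12 tight junction genes, 4 adherens junction genes, 6 desmosome genes, 5 polarity genes, 4 genes of hemidesmosomes and laminin, 3 keratins and 4 regulators of the epithelial state. They were chosen by name, by what their proteins are known to do, with earlier results of these data known. All 38 were found among the 47021 genes of the table and passed the filter on low counts. DLD1 is an established human colorectal cancer line. Lentivirus delivered the guides, 10 µg/ml puromycin selected the carriers, and the cells were kept in DMEM with fetal bovine serum. The control cells (sgC) are labelled wild type, and cells carrying guide 1 (sgZ1) or guide 3 (sgZ3) are labelled as knockouts of ZNF692, a zinc finger protein gene. Each guide gave 3 poly(A) RNA libraries, 9 in all. The labels do not say that replicates were separate cultures or how the stable lines were derived, so a p-value here is set against library spread that may be technical.

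Epithelial cells are held together by a belt of junctions. Tight junctions, built of claudins, occludin and their cytoplasmic scaffolds, seal the space between cells, and adherens junctions and desmosomes couple E-cadherin and desmosomal cadherins to actin and keratin. Crumbs and PAR complexes set the apical side, and the integrin encoded by ITGA6 and ITGB4 binds laminin at the base. In colorectal cells these genes are kept on by factors such as GRHL2. They can be shut off by repressors of the SNAI and ZEB families, which bind E-boxes. The splicing regulators ESRP1 and ESRP2 direct epithelial splice forms.

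The libraries held 16044224 to 24535642 counts, and the 38 genes took 1.27% to 1.55% of them. ZNF692 mRNA was not lower under its guides: it stood at 7.01, 6.32 and 6.18 CPM in sgC, 9.64, 9.82 and 11.5 CPM in sgZ1 and 7.92, 8.08 and 6.29 CPM in sgZ3, where CPM is a gene's count relative to the TMM-scaled total of its library. This does not test the labels, since a guide can disrupt a protein without lowering its mRNA. The 10 colorectal epithelium markers had a summed level of 7855 to 8525 CPM in sgC and 7439 to 8264 CPM in sgZ1. In sgZ3 it was 9419 to 9979 CPM. Most of that sum came from the 4 markers that are members, KRT8, KRT18, EPCAM and CDH1, described below. Of the other 6, 0 were higher and 5 lower under sgZ1, and 0 higher and 1 lower under sgZ3 (edgeR test described below, adjusted p under 0.05). Among all tested genes 15.5% were called higher and 10.3% lower under sgZ1, and 19.2% and 17.1% under sgZ3. The summed level of 8 leukocyte markers was 5.44 to 7.10 CPM, with PTPRC at 0 in 8 of 9 libraries. The libraries labelled sgZ1 replicate 2 and sgZ3 replicate 3 stood apart from the rest. VIM, which encodes the mesenchymal filament protein vimentin, reached 22.9 and 21.2 CPM there and at most 1.22 CPM in the other 7. The summed level of 9 fibroblast markers was 16.7 and 19.9 CPM in that pair against 0.744 to 2.46 CPM elsewhere, and FAP was at 0 in 8 of 9 libraries. Results below are therefore given over all 9 libraries, and for each member whose call under a guide changed without that pair, the value over the other 7 is added. Less RNA of a gene per cell and fewer cells that express it cannot be told apart in these bulk libraries.

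Control DLD1 cells carried all of these structures at very different levels. Per kilobase of exon, the highest sgC means were those of KRT18 (765 CPM per kb), KRT19 (642), EPCAM (472) and KRT8 (442). CLDN7 led the claudins at 208 CPM per kb, ahead of CLDN4 at 115 and CLDN3 at 50.1. CDH1, E-cadherin, stood at 123 CPM per kb, and JUP (118) and DSG2 (89.9) led the desmosome genes. The lowest value was that of CTNND1, at 0.797 CPM per kb. CTNND1 shares exons with a readthrough transcript, TMX2-CTNND1, at 4.75 to 10.4 CPM, so its count is uncertain.

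With both knockout guides averaged against sgC, 1 member was called higher and 12 lower, a call being an adjusted p under 0.05 (edgeR quasi-likelihood test, Benjamini-Hochberg over all tested genes). Among all 14732 tested genes 18.6% were called higher and 14.6% lower in that comparison. The median log2 fold change of the members was -0.21, against 0.01 for all tested genes. Only CLDN12, LAMB3 and TJP3 were called in each of the 9 fits that left out 1 library. In those fits the call was lost for DSC2 without sgC replicate 3 (adjusted p = 0.053) and for CLDN1 without sgC replicate 1 (adjusted p = 0.052). Among junction anchors it was lost for DSG2 without sgC replicate 1 or 3 or sgZ3 replicate 2 (adjusted p 0.051 to 0.095) and for LAMA3 without sgC replicate 1 or 3 (adjusted p 0.067 to 0.072). Further calls were lost for ITGA6 without sgC replicate 1 or 3 (adjusted p 0.069 to 0.072) and for OCLN without sgC replicate 1, 2 or 3 or sgZ3 replicate 1 or 2 (adjusted p 0.072 to 0.15). It was also lost for CGN without sgC replicate 1, 2 or 3, sgZ1 replicate 1 or sgZ3 replicate 1 or 2 (adjusted p 0.066 to 0.19) and for PARD3 without sgC replicate 1, 2 or 3, sgZ1 replicate 2 or 3 or sgZ3 replicate 1 or 2 (adjusted p 0.062 to 0.18). The call ended for PARD6B without sgC replicate 1, 2 or 3, sgZ1 replicate 3 or sgZ3 replicate 1 (adjusted p 0.063 to 0.13) and for ESRP1 without sgC replicate 1, 2 or 3 or sgZ3 replicate 2 (adjusted p 0.051 to 0.10). Without sgC replicate 1 or 3 the lower calls numbered 4, where 5.54% and 6.32% of all tested genes were called lower. Without sgZ3 replicate 3 they numbered 20, where 20.2% were called lower. Of all genes called, 56% were higher with TMM, 45.9% with upper-quartile factors and 36.6% with library totals, under which the call of ESRP1 ended at 0.21 (adjusted p = 0.087). Without both VIM-carrying libraries, 4 members were called higher and 22 lower, where 23.1% and 26.6% of all tested genes were called.

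The average hides that the calls under each guide fell on partly different members. A call under 1 guide alone is not a difference between the guides, which was tested directly and is given below. Under sgZ1, 1 member was called higher and 13 lower, where 15.5% and 10.3% of all tested genes were called. Under sgZ3, 6 were called higher and 14 lower, where 19.2% and 17.1% of all tested genes were called. The member medians were -0.23 and -0.19, against 0.01 and -0.02 over all tested genes. The sgZ3 member median was -0.35 with library totals (all genes -0.17), -0.29 over the 7 libraries (all genes -0.10) and -0.04 with length and GC offsets (all genes 0.02). Both comparisons use the same 3 sgC libraries. DSC2, ITGA6, LAMB3 and TJP3 were called lower under each guide, ESRP1, CLDN3 and EPCAM were called in opposite directions, and 11 members were called under neither. Leaving out 1 library moved these counts, and also the share of all tested genes called, given in brackets. Under sgZ1 the lower calls numbered 3 without sgC replicate 1 (4.53%) and 7 without sgC replicate 2 or 3 (6.29% and 5.86%). They numbered 8 without sgZ1 replicate 1 or 3 (9.15% and 6.75%). Under sgZ3 they numbered 5, 9 and 3 without sgC replicate 1, 2 and 3 (8.72%, 12.5% and 8.67%). Without sgZ3 replicate 1 or 2 the sgZ3 lower calls numbered 3 (8.68% and 8.03%). The sgZ3 higher calls also numbered 3 without sgC replicate 1 or 3 or sgZ3 replicate 1 (11.7%, 11.8% and 12.5%). Without sgZ3 replicate 3 the sgZ3 higher calls numbered 10 (22.6%). Of all genes called under sgZ3, 52.9% were higher with TMM, 41.5% with upper-quartile factors and 29.6% with library totals. The member calls that ended with those scalings are given with each gene.

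**Figure D1:**
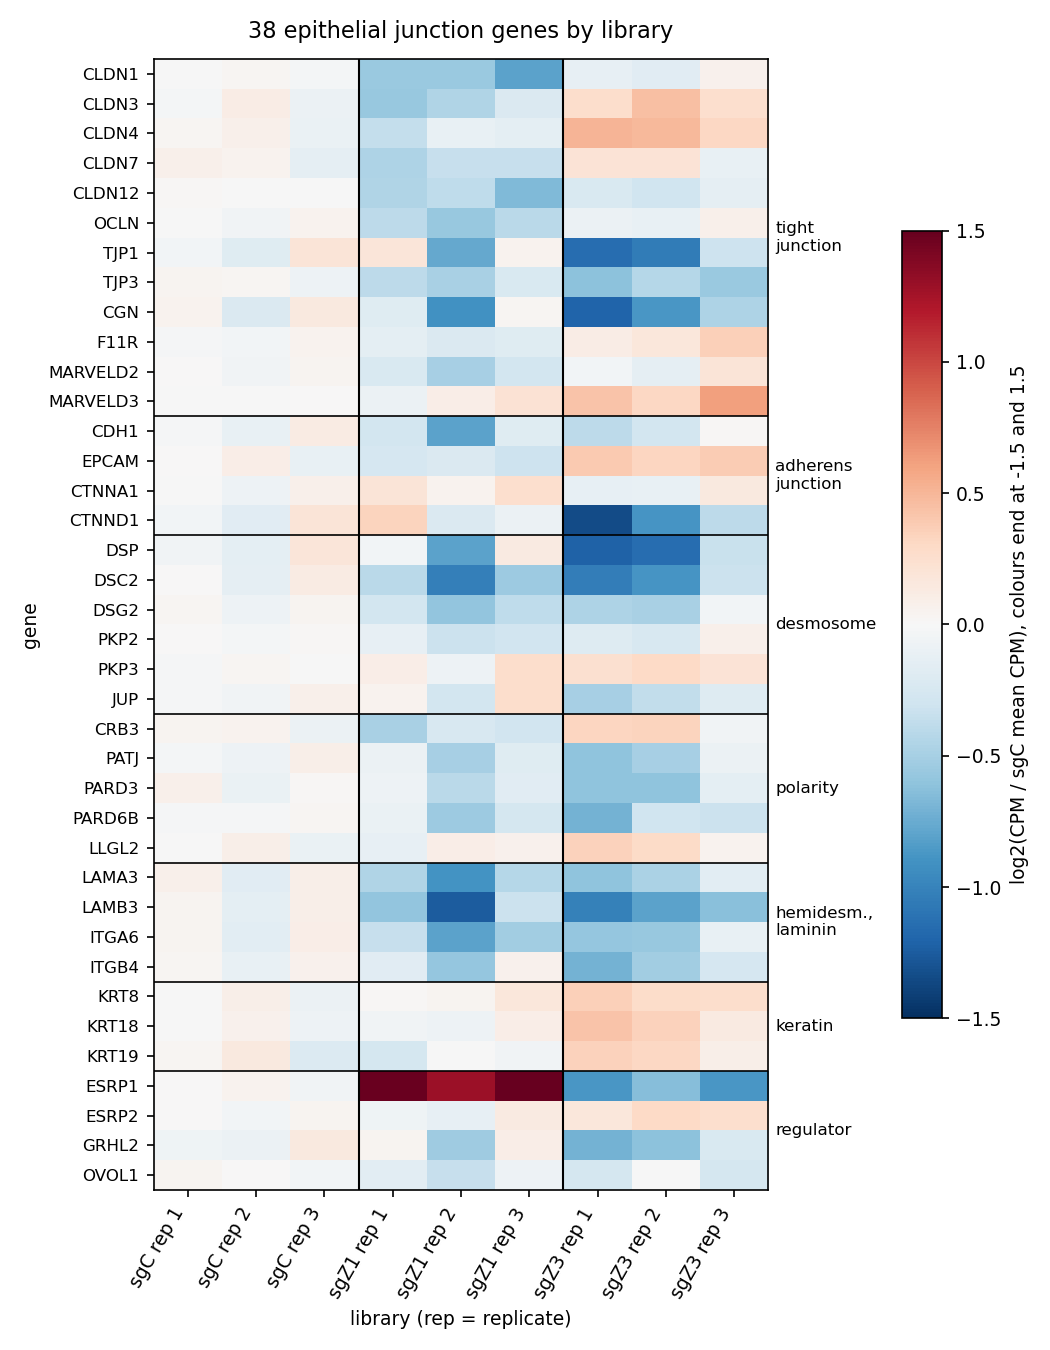
Each row is 1 of the 38 genes, grouped by role, and each column 1 of the 9 libraries; colour gives log2 of the library's CPM over the sgC mean, from blue (lower) to red (higher). In the sgZ1 columns most tight junction genes are blue, in the sgZ3 columns CLDN3, CLDN4, KRT8 and KRT18 are red while CLDN12, DSP, TJP1 and CGN are blue, and ESRP1 is red in sgZ1 and blue in sgZ3.

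Among the sealing proteins of the tight junction, 4 of 5 claudins were called lower under sgZ1 and 0 of 5 under sgZ3, where 2 were called higher. For these and the counts by role below, 15.5% of all tested genes were called higher and 10.3% lower under sgZ1. Under sgZ3 the shares were 19.2% and 17.1%. CLDN1, a barrier claudin, read 45.6, 46.4 and 44.8 CPM in sgC, 31.03, 30.99 and 26.2 CPM in sgZ1 and 41.9, 40.5 and 47.5 CPM in sgZ3. All sgZ1 libraries lay below all sgC libraries, and the sgZ3 libraries overlapped sgC. The sgZ1 level was 1.55-fold lower (log2 fold change -0.63 ± 0.10 SE, adjusted p = 0.00082), and the sgZ3 value was -0.07 ± 0.10 (adjusted p = 0.59). CLDN3, another barrier claudin, read 62.3, 68.9 and 60.2 CPM in sgC, 42.95, 46.8 and 54.9 CPM in sgZ1 and 76.5, 86.9 and 75.9 CPM in sgZ3. Here the 3 groups did not overlap: CLDN3 fell under sgZ1 (log2 fold change -0.40 ± 0.11 SE, adjusted p = 0.020) and rose under sgZ3 (log2 fold change 0.32 ± 0.11 SE, adjusted p = 0.039). CLDN4 read 548, 566 and 501 CPM in sgC, 419.8, 499 and 485 CPM in sgZ1 and 769, 752 and 667 CPM in sgZ3, and rose under sgZ3 by 0.44 ± 0.10 (adjusted p = 0.0051) on the log2 scale. In sgZ1 its value was -0.20 ± 0.10 (adjusted p = 0.14), and over the 7 libraries -0.26 (adjusted p = 0.013).

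CLDN7, which partners EPCAM at lateral membranes, read 545, 538 and 471 CPM in sgC, 377, 406 and 408 CPM in sgZ1 and 597, 599 and 478 CPM in sgZ3. It fell under sgZ1 by -0.38 ± 0.10 (adjusted p = 0.017), while sgZ3 overlapped sgC. CLDN12, a claudin without the usual tail that binds scaffolds, ran from 95.5 to 116 CPM in sgZ1 and from 149.9 to 153 CPM in sgC, a change of -0.49 ± 0.09 (adjusted p = 0.0024). Its sgZ3 value of -0.22 ± 0.09 (adjusted p = 0.082) was not called over 9 libraries and was -0.31 (adjusted p = 0.0032) over 7. Without single libraries the sgZ1 calls of CLDN1 and CLDN12 and the sgZ3 call of CLDN4 held in all 9 fits. Under sgZ1 the call was lost for CLDN3 without sgC replicate 1 or 2 or sgZ1 replicate 1 (adjusted p 0.060 to 0.084) and for CLDN7 without sgC replicate 1 or 2 or sgZ1 replicate 1 (adjusted p 0.060 to 0.084). Under sgZ3 it was lost for CLDN3 without sgC replicate 1 or 3 or sgZ3 replicate 1 or 2 (adjusted p 0.072 to 0.16). The rise of CLDN3 under sgZ3 also missed the threshold with library totals in place of TMM, at 0.17 (adjusted p = 0.23), and with upper-quartile factors, at 0.25 (adjusted p = 0.086). CLDN7 shares 10.8% of its exon length with an overlapping gene on the same strand.

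The MARVEL-domain proteins of the same strands were called lower less evenly, OCLN and MARVELD2 under sgZ1 and none under sgZ3. OCLN, occludin, read 69.3, 67.2 and 72.4 CPM in sgC, 53.2, 46.8 and 52.8 CPM in sgZ1 and 65.5, 64.6 and 73.1 CPM in sgZ3. It fell under sgZ1 (log2 fold change -0.45 ± 0.09 SE, adjusted p = 0.0044), in all 9 left-out fits, and overlapped sgC under sgZ3. MARVELD2, tricellulin, which seals the corners where cells meet, changed by -0.33 ± 0.11 (adjusted p = 0.046) under sgZ1. MARVELD3, a relative of occludin, rose under sgZ3 by 0.46 ± 0.11 (adjusted p = 0.0093), from 23.2 to 23.3 CPM in sgC to 28.7 to 35.6 CPM in sgZ3. F11R, the junctional adhesion molecule JAM-A, passed under neither guide, at -0.18 ± 0.09 (adjusted p = 0.16) and 0.22 ± 0.09 (adjusted p = 0.077). The sgZ1 call was lost for MARVELD2 without sgC replicate 1, 2 or 3, sgZ1 replicate 1, 2 or 3 or sgZ3 replicate 1 or 2 (adjusted p 0.052 to 0.14). With library totals in place of TMM the sgZ3 call of MARVELD3 ended, at 0.30 (adjusted p = 0.054). F11R shares 36.6% of its exon length with a same-strand gene and MARVELD3 16.6% with PHLPP2, so their counts are less certain.

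The 3 plaque genes of the tight junction were called lower under sgZ3, and 1 of them, TJP3, also under sgZ1. TJP3, a ZO scaffold, read 129, 127 and 118 CPM in sgC, 95.4, 89.2 and 107 CPM in sgZ1 and 81.1, 92.7 and 85.00 CPM in sgZ3. Both guides lay below sgC with no overlap, by -0.36 ± 0.10 (adjusted p = 0.016) under sgZ1 and -0.53 ± 0.10 (adjusted p = 0.0020) under sgZ3. TJP1, the main ZO scaffold, read 65.2, 59.3 and 76.7 CPM in sgC, 76.03, 39.5 and 69.4 CPM in sgZ1 and 30.3, 32.5 and 54.1 CPM in sgZ3. The sgZ3 libraries were all below sgC, by -0.78 ± 0.26 (adjusted p = 0.039), but sgZ3 replicate 3 lay nearest to sgC and sgZ1 replicate 2 fell among the low values. CGN, cingulin, which ties the plaque to actomyosin, showed the same layout at 44.1, 36.5 and 46.9 CPM in sgC, 37.6, 22.7 and 43.4 CPM in sgZ1 and 18.5, 23.3 and 30.8 CPM in sgZ3, and fell under sgZ3 by -0.81 ± 0.23 (adjusted p = 0.018). Over the 7 libraries the sgZ3 values were -1.14 (adjusted p = 2.9e-09) for TJP1 and -1.07 (adjusted p = 3.1e-08) for CGN, and the sgZ1 values 0.10 (adjusted p = 0.43) and -0.09 (adjusted p = 0.56). Under sgZ3 the call was lost for TJP1 without sgC replicate 1, 2 or 3, sgZ1 replicate 3 or sgZ3 replicate 1 or 2 (adjusted p 0.052 to 0.16) and for CGN without sgC replicate 1 or 3 or sgZ3 replicate 1 or 2 (adjusted p 0.070 to 0.083). Under sgZ1 it was lost for TJP3 without sgC replicate 1 or 2 (adjusted p 0.058 to 0.074).

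E-cadherin itself did not pass the test over all 9 libraries. CDH1 read 749, 702 and 823 CPM in sgC, 628, 435 and 671 CPM in sgZ1 and 577, 624 and 767 CPM in sgZ3. Every sgZ1 library was below every sgC library, while sgZ3 overlapped sgC. The changes were -0.39 ± 0.15 (adjusted p = 0.078) under sgZ1 and -0.21 ± 0.15 (adjusted p = 0.30) under sgZ3, and over the 7 libraries -0.23 (adjusted p = 0.027) and -0.38 (adjusted p = 0.00037). EPCAM, the most abundant adhesion molecule of the set, read 1191, 1273 and 1102 CPM in sgC, 996, 1025 and 959 CPM in sgZ1 and 1555, 1487 and 1548 CPM in sgZ3. The groups did not overlap: EPCAM was 1.196-fold lower under sgZ1 (log2 fold change -0.26 ± 0.08 SE, adjusted p = 0.031) and 1.29-fold higher under sgZ3 (log2 fold change 0.36 ± 0.08 SE, adjusted p = 0.0050). The sgZ1 call was lost for EPCAM without sgC replicate 1 or 2, sgZ1 replicate 1 or 3 or sgZ3 replicate 2 (adjusted p 0.052 to 0.13). Without the filter on low counts it was -0.24 (adjusted p = 0.11). CTNNA1, which links cadherin to actin, passed under neither guide, at 0.17 ± 0.10 (adjusted p = 0.23) and -0.02 ± 0.10 (adjusted p = 0.87), but was called higher under sgZ1 over the 7 libraries, at 0.21 (adjusted p = 0.032), and with length and GC offsets, at 0.21 (adjusted p = 0.019). CTNND1, the catenin that stabilises E-cadherin at the membrane, read 6.82, 6.21 and 8.02 CPM in sgC, 8.85, 6.06 and 6.602 CPM in sgZ1 and 2.77, 3.796 and 5.33 CPM in sgZ3 and fell under sgZ3 by -0.81 ± 0.23 (adjusted p = 0.016). That call was lost for CTNND1 without sgC replicate 3 or sgZ3 replicate 1 or 2 (adjusted p 0.062 to 0.071).

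Of the 6 desmosome genes, 2 were called lower under sgZ1 and 3 under sgZ3, and 0 were called higher under either guide. DSP, desmoplakin, which anchors keratin filaments, read 276, 258 and 326 CPM in sgC, 278, 165 and 316 CPM in sgZ1 and 124, 129.6 and 227 CPM in sgZ3. Replicates 1 and 2 of sgZ3 were the lowest of all libraries, sgZ3 replicate 3 lay nearer to sgC, and sgZ1 replicate 2 was well below its sister libraries. DSP fell under sgZ3 by -0.84 ± 0.27 (adjusted p = 0.036), and over the 7 libraries by -1.22 (adjusted p = 1.5e-10); its sgZ1 values were -0.18 ± 0.27 (adjusted p = 0.66) and 0.04 (adjusted p = 0.77). The cadherin DSC2 read 49.8, 44.9 and 53.6 CPM in sgC, 37.5, 24.3 and 34.00 CPM in sgZ1 and 24.1, 26.7 and 39.4 CPM in sgZ3, below sgC in every library of both guides. It fell by -0.63 ± 0.19 (adjusted p = 0.027) under sgZ1 and -0.71 ± 0.19 (adjusted p = 0.013) under sgZ3. DSG2, its partner cadherin, fell under sgZ1 by -0.41 ± 0.12 (adjusted p = 0.029), and its sgZ3 value was -0.32 ± 0.12 (adjusted p = 0.063) over 9 libraries and -0.52 (adjusted p = 4.3e-06) over 7.

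Of the plaque armadillo proteins of the desmosome, JUP, plakoglobin, fell under sgZ3 by -0.35 ± 0.13 (adjusted p = 0.048), from 561 to 611 CPM in sgC to 413 to 509.9 CPM. With RLE size factors that call ended at -0.33 (adjusted p = 0.051). PKP2 and PKP3, plakophilins, passed under neither guide. Their values were -0.24 ± 0.10 (adjusted p = 0.092) and -0.12 ± 0.10 (adjusted p = 0.38) for PKP2, and 0.11 ± 0.09 (adjusted p = 0.44) and 0.25 ± 0.09 (adjusted p = 0.058) for PKP3. Over the 7 libraries PKP2 was called lower under both guides, at -0.22 (adjusted p = 0.038) and -0.27 (adjusted p = 0.0080), and PKP3 higher under sgZ3, at 0.22 (adjusted p = 0.019). Under sgZ3 the desmosome call was lost for DSP without sgC replicate 1, 2 or 3, sgZ1 replicate 1 or sgZ3 replicate 1 or 2 (adjusted p 0.061 to 0.15) and for DSC2 without sgC replicate 3 or sgZ3 replicate 1 or 2 (adjusted p 0.058 to 0.062). It was also lost for JUP without sgC replicate 1, 2 or 3, sgZ1 replicate 1 or sgZ3 replicate 1 or 2 (adjusted p 0.068 to 0.17). Under sgZ1 it was lost for DSC2 without sgC replicate 1 or 3 or sgZ1 replicate 2 or 3 (adjusted p 0.070 to 0.10) and for DSG2 without sgC replicate 1, 2 or 3 or sgZ1 replicate 2 or 3 (adjusted p 0.051 to 0.10).

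Polarity genes had no call under sgZ1 and 2 lower calls under sgZ3. PARD3, the scaffold of the PAR complex, read 59.9, 52.8 and 57.5 CPM in sgC, 53.6, 42.7 and 50.6 CPM in sgZ1 and 37.4, 37.4 and 51.1 CPM in sgZ3. PARD6B, its partner that binds atypical protein kinase C, read 16.2, 16.2 and 16.6 CPM in sgC, 15.2, 11.1 and 13.6 CPM in sgZ1 and 9.95, 13.2 and 13.1 CPM in sgZ3. Both lay below sgC in every sgZ3 library, by -0.43 ± 0.14 (adjusted p = 0.026) and -0.43 ± 0.14 (adjusted p = 0.037). Of the Crumbs complex, CRB3, the apical membrane protein, read 94.3, 94.96 and 86.3 CPM in sgC, 65.8, 77.7 and 75.1 CPM in sgZ1 and 115, 116 and 88.7 CPM in sgZ3, and its values were -0.33 ± 0.12 (adjusted p = 0.053) under sgZ1 and 0.22 ± 0.12 (adjusted p = 0.16) under sgZ3. Over the 7 libraries CRB3 passed in both, at -0.39 (adjusted p = 0.00069) and 0.29 (adjusted p = 0.0056). PATJ, the Crumbs scaffold, was at -0.25 ± 0.14 (adjusted p = 0.23) and -0.37 ± 0.14 (adjusted p = 0.059), and at -0.59 (adjusted p = 7.3e-06) in sgZ3 over 7. LLGL2, which marks the basolateral side, was at 0.02 ± 0.10 (adjusted p = 0.93) and 0.24 ± 0.10 (adjusted p = 0.087), and at 0.27 (adjusted p = 0.0064) in sgZ3 over 7. Under sgZ3 the call was lost for PARD3 without sgC replicate 1 or 3 or sgZ3 replicate 1 or 2 (adjusted p 0.078 to 0.12) and for PARD6B without sgC replicate 1, 2 or 3, sgZ1 replicate 3 or sgZ3 replicate 1 or 2 (adjusted p 0.052 to 0.15).

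Of the 4 genes of basement-membrane contacts, 3 were called lower under each guide and 0 higher. LAMB3, the laminin beta chain of the epithelial basement membrane, read 284, 248 and 293 CPM in sgC, 182, 116 and 219 CPM in sgZ1 and 136, 158 and 179 CPM in sgZ3. No knockout library reached the lowest sgC library, and sgZ1 replicate 2 was the lowest of all. LAMB3 was 1.596-fold lower under sgZ1 (log2 fold change -0.67 ± 0.19 SE, adjusted p = 0.021) and 1.75-fold lower under sgZ3 (log2 fold change -0.80 ± 0.19 SE, adjusted p = 0.0075). LAMA3, the alpha chain of the same laminin, read 52.3, 43.97 and 52.6 CPM in sgC, 36.2, 26.7 and 36.9 CPM in sgZ1 and 32.6, 35.7 and 44.6 CPM in sgZ3. It fell under sgZ1 by -0.58 ± 0.15 (adjusted p = 0.013), and its sgZ3 value was -0.40 ± 0.15 (adjusted p = 0.054) over 9 libraries and -0.58 (adjusted p = 1.7e-05) over 7.

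ITGA6, the integrin alpha chain that binds this laminin, read 462, 402 and 479 CPM in sgC, 354, 256 and 312 CPM in sgZ1 and 299, 302 and 415 CPM in sgZ3. All sgZ1 libraries were below sgC, and sgZ3 replicate 3 overlapped sgC. It fell by -0.54 ± 0.15 (adjusted p = 0.017) and -0.40 ± 0.15 (adjusted p = 0.047). ITGB4, its hemidesmosomal partner, fell under sgZ3 by -0.48 ± 0.15 (adjusted p = 0.027) with no overlap, and its sgZ1 value was -0.20 ± 0.15 (adjusted p = 0.35). Over the 7 libraries the sgZ3 values were -0.95 (adjusted p = 7.2e-09) for LAMB3, -0.62 (adjusted p = 1.6e-06) for ITGA6 and -0.66 (adjusted p = 6.7e-07) for ITGB4. The sgZ3 call of LAMB3 held in all 9 left-out fits. Under sgZ1 the call was lost for LAMB3 without sgC replicate 1 or 3 or sgZ1 replicate 1 (adjusted p 0.050 to 0.085) and for LAMA3 without sgC replicate 1 or 3 (adjusted p 0.055 to 0.064). It was also lost for ITGA6 without sgC replicate 1 or 3 or sgZ1 replicate 2 or 3 (adjusted p 0.053 to 0.070). Under sgZ3 it was lost for ITGA6 without sgC replicate 1 or 3, sgZ1 replicate 3 or sgZ3 replicate 1 or 2 (adjusted p 0.073 to 0.17) and for ITGB4 without sgC replicate 1 or 3 or sgZ3 replicate 1 or 2 (adjusted p 0.088 to 0.11).

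Keratins of simple epithelium did not pass under sgZ1, and KRT8 and KRT18, which pair into one filament, rose under sgZ3. KRT8 read 3027, 3239 and 2869 CPM in sgC, 3071, 3136 and 3435 CPM in sgZ1 and 3885, 3692 and 3656 CPM in sgZ3. KRT18 read 2462, 2582 and 2342 CPM in sgC, 2369, 2341 and 2637 CPM in sgZ1 and 3313, 3127 and 2708 CPM in sgZ3. In both genes every sgZ3 library was above every sgC library, by 0.30 ± 0.08 (adjusted p = 0.014) for KRT8 and 0.31 ± 0.09 (adjusted p = 0.022) for KRT18. KRT19 was at 0.26 ± 0.11 (adjusted p = 0.088) with overlap, and at 0.29 (adjusted p = 0.0088) over the 7 libraries. The call was lost for KRT8 without sgC replicate 1 or 3 or sgZ3 replicate 1 (adjusted p 0.055 to 0.069) and for KRT18 without sgC replicate 1 or 3 or sgZ3 replicate 1 or 2 (adjusted p 0.075 to 0.097). With library totals in place of TMM the values were 0.14 (adjusted p = 0.12) for KRT8 and 0.15 (adjusted p = 0.16) for KRT18, neither called. The KRT18 call also ended with upper-quartile factors, at 0.24 (adjusted p = 0.054). KRT8 and KRT18 share 525 bp of exon on opposite strands, and whether counting used strand is not given in the sources used here.

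**Figure D2:**
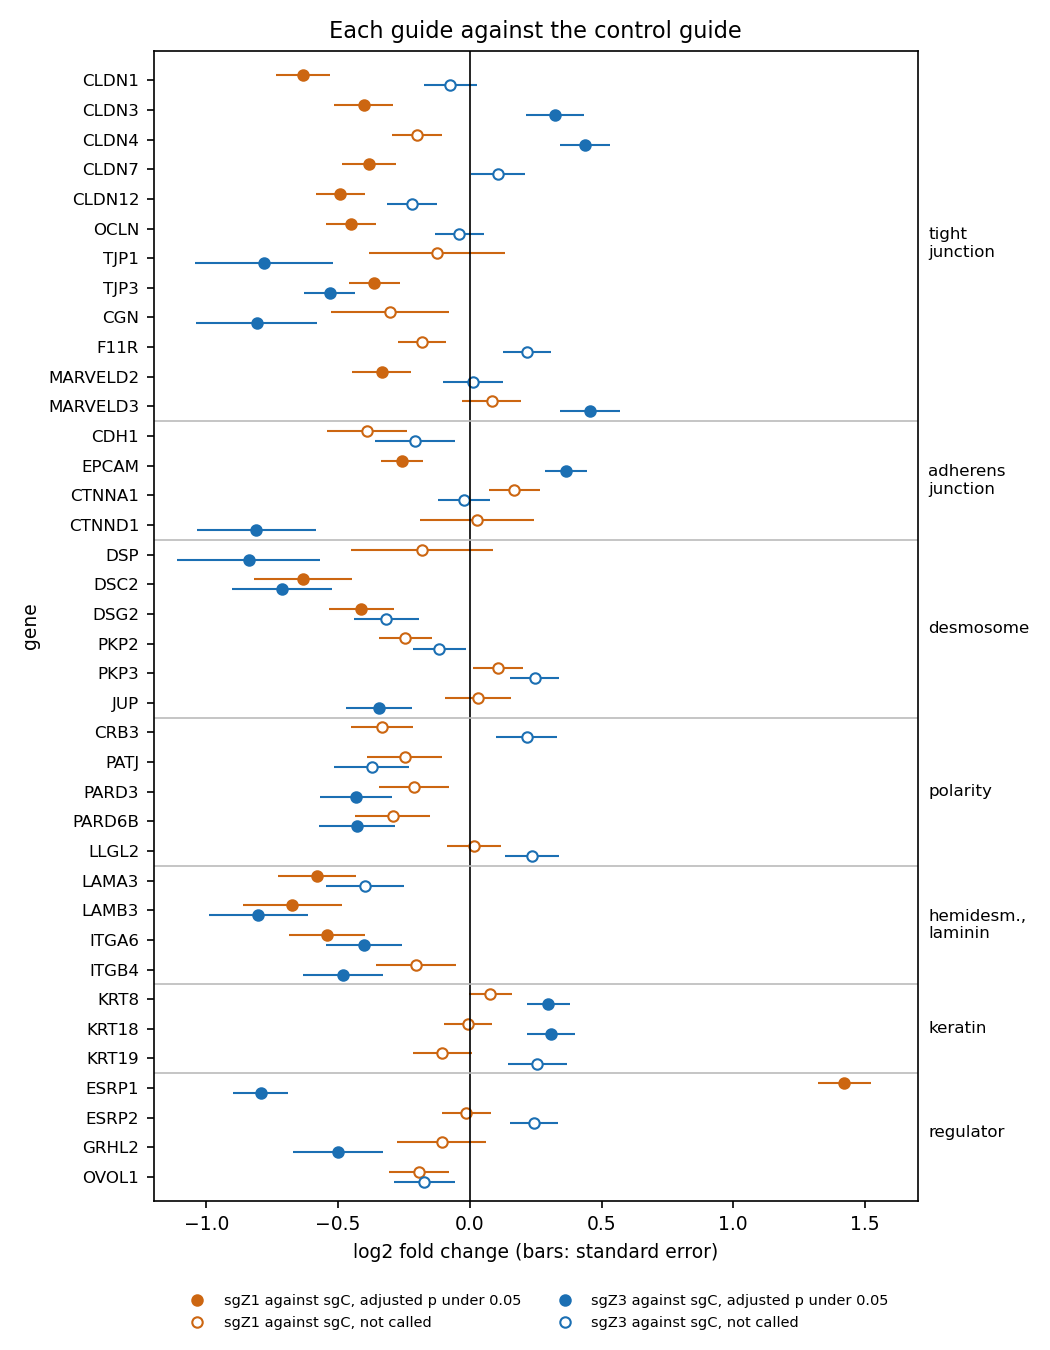
Log2 fold change of each of the 38 genes (rows, by role) for sgZ1 (orange) and sgZ3 (blue) against sgC; bars are standard errors and filled points have an adjusted p under 0.05. The 5 claudins lie left of 0 in sgZ1, and in sgZ3 CLDN3 and CLDN4 lie right of 0 and CLDN12 left, while laminin and integrin genes lie left in both and ESRP1 lies at 1.42 in sgZ1 and -0.79 in sgZ3.

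Of the 4 epithelial regulators, ESRP1 had the largest change of any member under sgZ1. ESRP1, which directs epithelial splice forms, read 29.03, 30.05 and 27.9 CPM in sgC, 80.7, 70.8 and 81.4 CPM in sgZ1 and 15.8, 18.5 and 15.8 CPM in sgZ3. The 3 groups were far apart and their libraries close together. Its level was 2.68-fold higher under sgZ1 (log2 fold change 1.42 ± 0.10 SE, adjusted p = 1.1e-06) and 1.73-fold lower under sgZ3 (log2 fold change -0.79 ± 0.11 SE, adjusted p = 0.00039), and both calls held in all 9 left-out fits. Its paralog ESRP2 read 112, 109 and 115 CPM in sgC, 107, 103 and 123 CPM in sgZ1 and 126, 138 and 134 CPM in sgZ3 and passed under neither guide, at -0.01 ± 0.09 (adjusted p = 0.93) and 0.24 ± 0.09 (adjusted p = 0.056). GRHL2, a transcription factor of epithelial junction genes, read 38.4, 37.7 and 44.3 CPM in sgC, 41.3, 27.6 and 43.01 CPM in sgZ1 and 24.5, 26.1 and 34.3 CPM in sgZ3. It fell under sgZ3 by -0.50 ± 0.17 (adjusted p = 0.038), with sgZ3 replicate 3 nearest to sgC, and over the 7 libraries by -0.71 (adjusted p = 1.3e-06). That call was lost for GRHL2 without sgC replicate 1, 2 or 3 or sgZ3 replicate 1 or 2 (adjusted p 0.059 to 0.14). OVOL1, a repressor of mesenchymal genes, passed under neither guide, at -0.19 ± 0.11 (adjusted p = 0.24) and -0.17 ± 0.12 (adjusted p = 0.26). OVOL1 shares 27.1% of its exon length with an antisense gene.

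**Figure D3:**
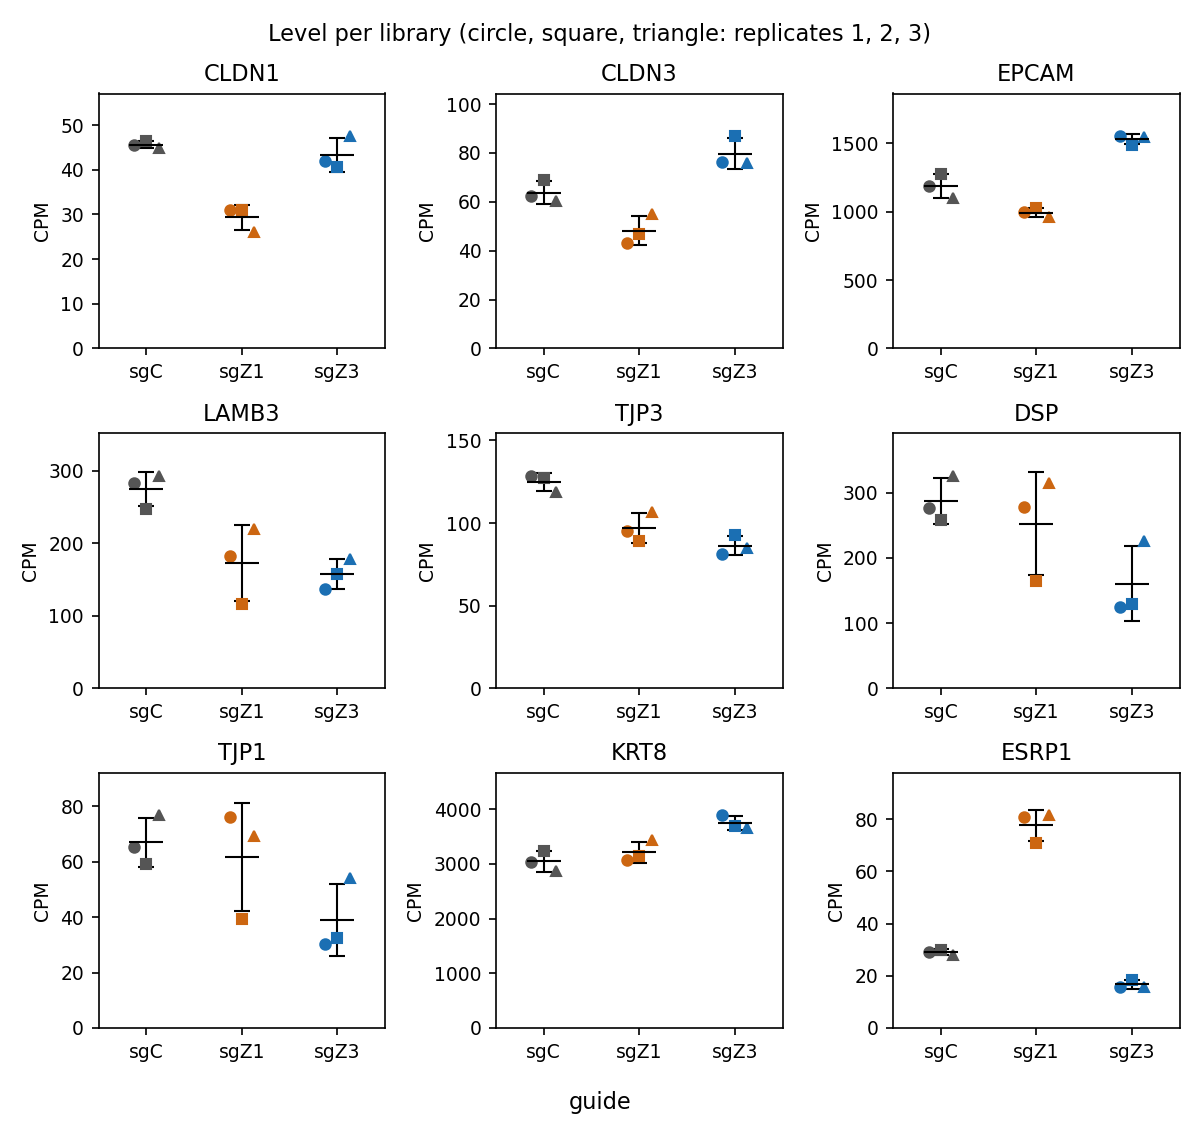
CPM in each library for 9 of the genes, with circles, squares and triangles for replicates 1, 2 and 3, horizontal bars for the group mean and whiskers for the SD (n = 3). CLDN1, CLDN3, EPCAM and ESRP1 separate by guide, LAMB3 and TJP3 are below sgC under both guides, and in DSP and TJP1 sgZ1 replicate 2 (square) is low and sgZ3 replicate 3 (triangle) is high within its group.

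The difference between the guides was tested directly, as sgZ3 against sgZ1. Of the members, 13 were called higher in sgZ3 and 3 lower, where 12.8% and 15.8% of all tested genes were called. Without sgZ1 replicate 2 the lower calls numbered 9 (21.6% of all tested genes) and without sgZ3 replicate 3 they numbered 10 (21.8%). Without sgZ1 replicate 1 or sgZ3 replicate 1 the higher calls numbered 8 (6.88% and 7.58% of all tested genes). The lower calls there numbered 1 (9.75% and 10.1%), as they did without sgZ3 replicate 2 (9.9%). The higher ones in the fit to all 9 libraries included 9 of 12 tight junction genes. All of them are membrane proteins: 5 claudins, OCLN, F11R, MARVELD2 and MARVELD3. CLDN3 differed by 0.73 ± 0.11 (adjusted p = 0.00058), CLDN4 by 0.64 ± 0.10 (adjusted p = 0.00048), CLDN1 by 0.56 ± 0.10 (adjusted p = 0.0018) and CLDN7 by 0.49 ± 0.10 (adjusted p = 0.0041). EPCAM was higher by 0.62 ± 0.08 (adjusted p = 0.00014) and CRB3 by 0.55 ± 0.12 (adjusted p = 0.0045), as were OCLN by 0.41 ± 0.09 (adjusted p = 0.0069) and F11R by 0.40 ± 0.09 (adjusted p = 0.0065). These 8 calls held in all 9 left-out fits. The lowest was ESRP1, at -2.22 ± 0.11 (adjusted p = 4.1e-08), which also held. CTNND1 differed by -0.84 ± 0.23 (adjusted p = 0.016) and JUP by -0.38 ± 0.13 (adjusted p = 0.041). Of the 6 colorectal epithelium markers that are not members, 5 were called lower under sgZ1 and 5 higher in sgZ3 than in sgZ1. The claudins and EPCAM had the same directions in both of those comparisons. Under sgZ3 against sgC, 0 of these markers were called higher and 1 lower, while CLDN3, CLDN4 and EPCAM were called higher. The part of these markers in the differences between the guides was not tested.

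The remaining differences between the guides depended on single libraries. The call was lost for CLDN12 without sgC replicate 1, 2 or 3, sgZ1 replicate 1 or 3 or sgZ3 replicate 1, 2 or 3 (adjusted p 0.072 to 0.13) and for MARVELD2 without sgC replicate 1, 2 or 3, sgZ1 replicate 1, 2 or 3 or sgZ3 replicate 1 or 3 (adjusted p 0.058 to 0.13). Among smaller differences it was lost for MARVELD3 without sgZ1 replicate 1 or sgZ3 replicate 1 or 3 (adjusted p 0.058 to 0.12) and for KRT18 without sgZ1 replicate 1 or 2 or sgZ3 replicate 1 or 2 (adjusted p 0.056 to 0.10). A keratin call was lost for KRT19 without sgC replicate 1, sgZ1 replicate 1 or 3 or sgZ3 replicate 1 or 2 (adjusted p 0.051 to 0.14). Lower calls were lost for CTNND1 without sgZ1 replicate 1 or sgZ3 replicate 1 or 2 (adjusted p 0.062 to 0.087) and for JUP without sgC replicate 1, 2 or 3, sgZ1 replicate 1 or 3 or sgZ3 replicate 1 or 2 (adjusted p 0.058 to 0.18). The main values were 0.27 ± 0.09 for CLDN12, 0.35 ± 0.11 for MARVELD2, 0.37 ± 0.11 for MARVELD3, 0.32 ± 0.09 for KRT18 and 0.36 ± 0.11 for KRT19. With library totals in place of TMM the calls of these 5 genes ended, and of all genes called 27% were higher in sgZ3, against 44.7% with TMM. Upper-quartile factors ended the calls of CLDN12, at 0.23 (adjusted p = 0.079), and MARVELD2, at 0.30 (adjusted p = 0.066). With only the 6 libraries of both guides fitted, those of CLDN12, MARVELD2, MARVELD3, KRT18 and JUP ended.

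Leaving out the VIM-carrying pair changed this comparison too. Over the 7 libraries 12 members were higher in sgZ3 than in sgZ1 and 15 were lower, where 23.2% and 29.9% of all tested genes were called. Among the 12 added lower calls, DSP differed by -1.26 (adjusted p = 7.6e-11), TJP1 by -1.25 (adjusted p = 1e-09), CGN by -0.98 (adjusted p = 3e-07) and GRHL2 by -0.77 (adjusted p = 1.2e-06). ITGB4 differed by -0.60 (adjusted p = 8.2e-06), DSC2 by -0.53 (adjusted p = 0.00028), PARD3 by -0.51 (adjusted p = 0.00012) and LAMB3 by -0.48 (adjusted p = 0.00025). CTNNA1 was at -0.38 (adjusted p = 0.00059), PATJ at -0.45 (adjusted p = 0.00060), PARD6B at -0.34 (adjusted p = 0.039) and TJP3 at -0.25 (adjusted p = 0.030). JUP, already called, moved to -0.63 (adjusted p = 1.7e-06). LLGL2 was called higher, at 0.31 (adjusted p = 0.0054). The higher calls of MARVELD2 and MARVELD3 ended, at 0.13 (adjusted p = 0.30) and 0.26 (adjusted p = 0.054), and OCLN moved to 0.26 (adjusted p = 0.022). The differences of the 5 claudins kept their direction, with CLDN4 at 0.71 (adjusted p = 2.3e-07) and CLDN3 at 0.71 (adjusted p = 4.9e-06). Against sgC the 7 libraries gave 2 higher and 17 lower calls under sgZ1, where 22% and 17.5% of all tested genes were called. Under sgZ3 they gave 10 and 20, where 23.9% and 31.3% were called. The part of the VIM-carrying libraries' other RNA in these differences was not tested.

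Exon length moved with the sgZ3 values. Union exon length ran from 1274 bp for CLDN3 to 14678 bp for LAMA3. All tested genes were split by length into 3 classes of equal size. Of the 6 members in the shortest class, up to 3417 bp, 3 rose and 0 fell under sgZ3, with a median log2 fold change of 0.28. Of the 17 in the longest class, 2 rose and 8 fell, with a median of -0.40. Of all 4873 tested genes in the shortest class, 1299 were called higher and 385 lower under sgZ3. Of all 4872 in the longest class, 523 were called higher and 1320 lower. The medians over all tested genes in those classes were 0.18 and -0.19. Across the 38 members the sgZ3 log2 fold change and length had a Pearson r of -0.53 and a Spearman rho of -0.45, and across the 14616 tested genes with a length r was -0.23 and rho -0.30. In sgZ1 r was 0.00 and rho 0.04 for the members. Genes share their libraries here and are not replicates, so these are descriptions. With offsets for length and GC content, chosen after seeing the data, 7 members were higher and 11 lower under sgZ3, where 23.3% and 16.2% of all tested genes were called. Under sgZ1 2 were higher and 17 lower, where 18.8% and 12.2% were called. The sgZ3 calls of CLDN3, KRT18, TJP1, DSC2, PARD6B and ITGA6 ended with those offsets, as did the sgZ1 call of MARVELD2 and, between the guides, that of JUP. Over both guides those of CLDN12, OCLN and PARD6B ended. The part of exon length in the sgZ3 values was not tested further.

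**Figure D4:**
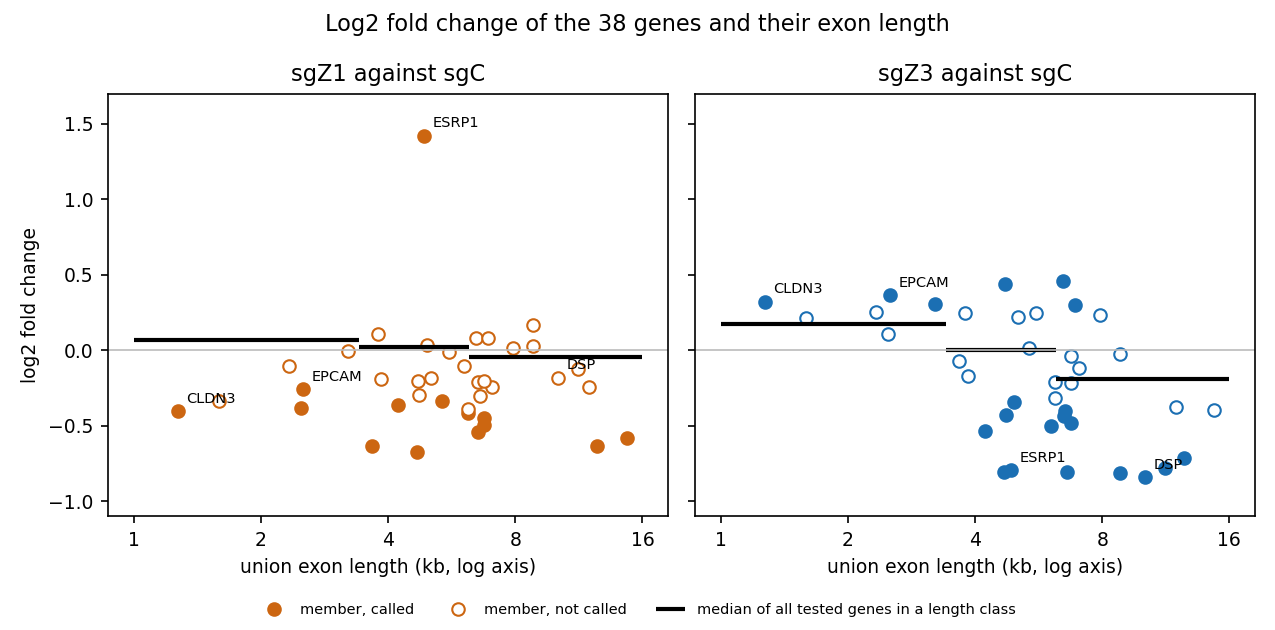
Log2 fold change against union exon length (kb, log axis) for the 38 members under sgZ1 (left) and sgZ3 (right); filled points were called, and black lines are the medians of all tested genes in each of the 3 length classes. The sgZ3 medians of all genes step down from 0.18 to -0.19, and the members DSP and CLDN3 lie at opposite ends.

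Other genes of the same structures, from lists written by role, gave the following counts. For the counts over both guides in this and the following paragraphs, 18.6% of all tested genes were called higher and 14.6% lower. Of 22 other tight junction genes tested, 1 was called higher and 4 lower over both guides. The higher one was CLDN2, a pore-forming claudin, at 35.2, 38.7 and 41.5 CPM in sgC, 55.1, 59.4 and 58.7 CPM in sgZ1 and 82.97, 83.2 and 89.97 CPM in sgZ3. Unlike CLDN1, it rose under both guides, by 0.59 ± 0.09 (adjusted p = 0.00081) and 1.15 ± 0.09 (adjusted p = 7.9e-05), in every left-out fit. USP53, a tight junction plaque protein, fell over both guides by -0.72 ± 0.13 (adjusted p = 0.0021). Of 20 other adherens junction genes 2 were higher and 4 lower. NECTIN3, a nectin of cell contacts, read 9.64, 8.89 and 9.51 CPM in sgC, 60.2, 55.7 and 50.01 CPM in sgZ1 and 7.04, 6.18 and 9.74 CPM in sgZ3 and rose under sgZ1 by 2.56 ± 0.15 (adjusted p = 2.4e-07). Its sgZ3 value was -0.28 ± 0.16 (adjusted p = 0.17), a difference between guides of -2.85 ± 0.15 (adjusted p = 1.1e-07).

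Of 22 other hemidesmosome, laminin and integrin genes, 1 was called higher and 9 lower over both guides. ITGB6, an epithelial integrin beta chain, read 31.5, 27.3 and 29.4 CPM in sgC, 16.5, 12.4 and 15.1 CPM in sgZ1 and 15.6, 14.9 and 18.7 CPM in sgZ3, and fell by -1.005 ± 0.13 (adjusted p = 0.00019) and -0.84 ± 0.13 (adjusted p = 0.00097). Its alpha partner ITGAV fell over both guides by -0.52 ± 0.09 (adjusted p = 0.0020). The higher one was CD151, a tetraspanin of hemidesmosomes, at 0.42 ± 0.08 (adjusted p = 0.0021) over both guides and 0.73 ± 0.09 (adjusted p = 0.00025) under sgZ3. Of 7 other desmosome genes 1 was higher and 3 lower. EVPL, envoplakin, a relative of DSP, fell under sgZ3 by -0.93 ± 0.19 (adjusted p = 0.0036) and differed between the guides by -0.89 ± 0.19 (adjusted p = 0.0043). Of 18 other polarity genes 2 were higher and 3 lower. Of 11 other keratin genes 5 were higher and 1 lower.

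Of 16 other epithelial regulators 1 was called higher and 3 lower over both guides. KLF5, a factor of gut epithelium, read 298, 283 and 299 CPM in sgC, 247, 181 and 227 CPM in sgZ1 and 155, 174 and 201 CPM in sgZ3, and EHF, an ETS factor of epithelium, read 450.3, 478 and 510.1 CPM in sgC, 384, 336 and 352 CPM in sgZ1 and 314, 339 and 391 CPM in sgZ3. Over both guides they fell by -0.58 ± 0.10 (adjusted p = 0.0020) and -0.44 ± 0.08 (adjusted p = 0.0026), with no overlap with sgC. SPINT2, an inhibitor of epithelial surface proteases, rose under sgZ3 by 0.63 ± 0.12 (adjusted p = 0.0023). Of 13 repressors of epithelial genes 7 were tested, with 2 higher and 3 lower over both guides. SNAI1, which represses CDH1 and claudins, stood at 1.900, 1.66 and 1.66 CPM in sgC, 5.08, 4.67 and 5.91 CPM in sgZ1 and 2.301, 2.93 and 2.44 CPM in sgZ3, a low level in every library. It rose under sgZ1 by 1.58 ± 0.17 (adjusted p = 4.4e-05) in every left-out fit, and differed between the guides by -1.02 ± 0.17 (adjusted p = 0.00095). Under sgZ3 SNAI1 was also called higher, by 0.56. That call was lost without sgC replicate 1, 2 or 3 or sgZ3 replicate 1 or 2 (adjusted p 0.055 to 0.14). TCF3, a basic helix-loop-helix factor that binds E-boxes, rose over both guides by 0.48 ± 0.09 (adjusted p = 0.0025). TCF4, its relative, fell over both guides by -0.60 ± 0.12 (adjusted p = 0.0037), a call that ended at -0.18 (adjusted p = 0.20) with length and GC offsets. The other 2 lower calls, singled out after their values were seen, were KLF8 at -1.08 ± 0.31 (adjusted p = 0.020) and PRRX1 at -1.30 ± 0.26 (adjusted p = 0.0038), both at most 1.24 CPM. ZEB1 was at most 1.39 CPM, with its highest values in the VIM-carrying pair, and was not tested. The summed level of 15 mesenchymal genes was 103 to 119 CPM in sgC, 199.6 to 333 CPM in sgZ1 and 121 to 259.6 CPM in sgZ3. Of these genes 12 were tested, with 4 called higher under sgZ1 and 1 under sgZ3, where 15.5% and 19.2% of all tested genes were called higher.

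Because SNAI and ZEB repressors read the E-box CAGGTG, the letters of member promoters were searched for it on both strands, in the 250 bases before each RefSeq start. The RefSeq table (GRCh38.p14) held 35 such windows for 21 of the members. The E-box was found in 14 of 35 windows (40%), against 17.5% of all 35116 windows, and in at least 1 window of 13 of 21 members, against 20.6% of 27305 genes. A match is a description and not a site, and members with several starts had more windows. The GRHL core AACCGGTT was in 0 of 35 windows, against 0.117% of all. The following 3 windows lie outside annotated exons, with the E-box in capitals, written CACCTG where it lies on the opposite strand. They are examples and do not stand for the set. The CRB3 window holds 5 E-boxes and a CLDN7 window 4, and both genes were called higher in sgZ3 than in sgZ1. Windows of CLDN1 and CLDN12, called lower under sgZ1, and of CGN, called lower under sgZ3, hold 0. CDH1 has no window among the 35. Whether E-boxes go with the changes was not tested.

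ITGA6 fell under both guides, and of its 2 windows chr2:172427086-172427335 on the plus strand holds 2 E-boxes and the other 0. TJP1 fell under sgZ3, and of its 4 windows chr15:29969050-29969299 on the minus strand holds 1 and the other 3 hold 0. CLDN3 fell under sgZ1 and rose under sgZ3, and its only window in the table, chr7:73770271-73770520 on the minus strand, holds 0.
ITGA6: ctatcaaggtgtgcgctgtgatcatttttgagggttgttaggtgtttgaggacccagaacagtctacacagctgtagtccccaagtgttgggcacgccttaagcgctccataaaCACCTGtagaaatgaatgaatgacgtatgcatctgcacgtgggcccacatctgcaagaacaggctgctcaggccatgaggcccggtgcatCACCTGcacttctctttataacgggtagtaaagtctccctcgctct
TJP1: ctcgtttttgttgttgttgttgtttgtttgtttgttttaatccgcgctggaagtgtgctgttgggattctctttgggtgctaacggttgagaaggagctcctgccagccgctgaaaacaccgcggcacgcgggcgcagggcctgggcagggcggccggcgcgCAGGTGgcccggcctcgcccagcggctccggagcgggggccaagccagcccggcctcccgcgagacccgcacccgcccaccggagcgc
CLDN3: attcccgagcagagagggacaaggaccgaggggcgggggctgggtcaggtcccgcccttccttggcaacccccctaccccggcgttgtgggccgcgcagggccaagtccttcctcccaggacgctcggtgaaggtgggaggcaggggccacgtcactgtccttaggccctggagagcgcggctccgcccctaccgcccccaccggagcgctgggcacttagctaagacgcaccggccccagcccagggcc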

How the data were processed

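Gene counts of poly(A) RNA from 9 DLD1 libraries were used, 3 for each of sgC, sgZ1 and sgZ3, grouped by their titles. The deposited values are whole-number counts per gene, not normalized. Build hg38 and the tools HTSeq, DESeq2, SAMtools 1.9 and STAR 2.5.2b appear in the submitters' processing notes. For strand and annotation release the setting is not given in the sources used here. The ribosomal RNA table was not used here.

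Of 47021 genes, 14732 passed filterByExpr. Counts were scaled by TMM and fitted in R 4.3.3 with edgeR 4.0.16 (robust quasi-likelihood, all 9 libraries, group as the only term) on limma 3.58.1. P-values were adjusted by Benjamini-Hochberg over all tested genes with calls below 0.05. The common dispersion corresponded to a biological coefficient of variation of 12.7%. CPM values use TMM-scaled library sizes. Coordinates, lengths and overlaps came from GENCODE 29, and promoters from RefSeq GRCh38.p14. The script was tested on simulated counts.

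The 38 members and all gene lists were chosen with earlier results of these data known. Full values are given for called members, and from other lists up to 3 genes with the smallest adjusted p over both guides and up to 3 between the guides could be named. Alternatives were other scalings, filters, DESeq2 1.42.0, fits to the compared groups, a replicate block, left-out libraries, the 7 libraries without the VIM-carrying pair, and length and GC offsets.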

Additional observations from a re-analysis of the deposited data

Results flagged for a closer look

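The 16 members that differed between the guides in the direct test of sgZ3 against sgZ1 (edgeR quasi-likelihood, Benjamini-Hochberg) are results that a reader would want to look at again, since both guides are labelled as knockouts of 1 gene. Tight junction membrane proteins were higher in sgZ3: the log2 difference was 0.56 for CLDN1, 0.73 for CLDN3, 0.64 for CLDN4, 0.49 for CLDN7 and 0.27 for CLDN12. It was 0.41 for OCLN, 0.40 for F11R, 0.35 for MARVELD2 and 0.37 for MARVELD3, and without the VIM-carrying pair the MARVELD2 and MARVELD3 differences were 0.13 (adjusted p = 0.30) and 0.26 (adjusted p = 0.054), neither called. Outside the tight junction it was 0.62 for EPCAM, 0.55 for CRB3, 0.32 for KRT18 and 0.36 for KRT19. Lower in sgZ3 were ESRP1 at -2.22, CTNND1 at -0.84 and JUP at -0.38. The libraries of the 2 guides did not overlap in 15 of these genes, JUP being the exception.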

How the results depend on the processing

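No member's call reversed direction under any alternative run. Over all members, comparisons and alternatives, 2431 of the values stayed on their side of the threshold, 195 were called in addition and 220 were no longer called. Values called in neither fit could change sign, as those of TJP1 and DSP did under sgZ1 over the 7 libraries. The count of members called higher over both guides was 1, and became 2 with RLE size factors or the replicate block, 0 with library totals, 3 with DESeq2 or length and GC offsets, and 4 without the VIM-carrying pair. Without that pair the members lower over both guides numbered 22, those higher numbered 2 under sgZ1 and 10 under sgZ3, and those lower in sgZ3 than in sgZ1 numbered 15. Length and GC offsets gave 2 members higher under sgZ1. Library totals gave 2 members higher under sgZ3 and 8 higher in sgZ3 than in sgZ1, and shifted the median of all genes under sgZ3 to -0.17. Without a low-count filter 8 members were lower in sgZ3 than in sgZ1. Over all genes, a mean of at least 10 CPM left 1437 higher under sgZ1 and 1400 lower in sgZ3 than in sgZ1. Library totals gave 1738 higher and 4135 lower under sgZ3, 3265 lower over both guides and 1148 higher in sgZ3 than in sgZ1. Without the VIM-carrying pair 2605 genes were lower under sgZ1, 4676 under sgZ3 and 3967 over both guides, and 3468 were higher and 4464 lower in sgZ3 than in sgZ1. TCF4, one of the repressors of epithelial genes, fell under sgZ3 by -0.55 ± 0.14 (adjusted p = 0.012) and stood at 0.016 (adjusted p = 0.93) with length and GC offsets.

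With 1 library left out at a time, members lower ran from 3 to 16 under sgZ1, 3 to 18 under sgZ3, 4 to 20 over both guides and 1 to 10 in sgZ3 against sgZ1, and members higher from 1 to 1, 3 to 10, 0 to 3 and 8 to 12. All genes higher ran from 1442 to 2824, 1774 to 3393, 1360 to 3303 and 1035 to 2871 in the same order, and all genes lower from 687 to 2031, 1222 to 3403, 841 to 3034 and 1466 to 3282. Fewer samples remain in these fits.

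With a replicate block members called higher and lower numbered 1 and 15 under sgZ1, 6 and 17 under sgZ3, 2 and 18 over both guides and 14 and 7 in sgZ3 against sgZ1. Deviations of same-numbered libraries from their group means correlated at 0.003, 0.25 and 0.14 between sgC and sgZ1, 0.040, 0.091 and 0.17 between sgC and sgZ3, and -0.036, -0.004 and -0.12 between the guides, so the numbers were not taken to pair the samples. Low counts limit CTNND1, with 41 to 190 counts per library.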
